A study of Mus musculus with 8 samples.

Results

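The regions described here are stretches of H3K27me3 signal that lie far from genes: 39259 of the 265968 regions in the authors' deposited table, all on autosomes and each more than 100 kb from the span of every RefSeq protein-coding gene. They were chosen by position alone, using the GRCm38 coordinates of the table and the RefSeq annotation of that build. They are compared with 101023 regions that overlap a protein-coding gene span, called genic below, and with all 263973 autosomal regions. The remaining 123691 autosomal regions lie within 100 kb of a gene but outside its span. The table holds only regions that the authors listed as differing between 2 sets of libraries, so stretches where the mark was similar in both sets are not in it.

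The cells were 3T3 fibroblasts, a spontaneously immortalised line of mouse embryo cells, carrying either a control construct or an NNMT overexpression construct. NNMT is nicotinamide N-methyltransferase, an enzyme that uses S-adenosylmethionine as methyl donor, and the comparison addresses where H3K27me3 differs between the constructs. All cells were kept 48 h in methionine-free medium to which 10 µM methionine and 10% dialyzed serum were added, and chromatin was fixed with 1% formaldehyde and cut with micrococcal nuclease. Each construct gave 3 libraries immunoprecipitated with H3K27me3 antibody C36B11, which the labels call biological replicates, and 1 input library. Neither the promoter driving the constructs nor the number of clones is given in the sources used here. The table gives 3 values for a set listed first (set 1) and 3 for a set listed second (set 2), without naming the construct of either set. No direction below is therefore tied to NNMT, and the libraries within a set carry no names. The inputs have no value in the table, sequencing depth is unknown, and values are in the authors' units as deposited.

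H3K27me3 is the trimethyl mark that Polycomb repressive complex 2 places on histone H3, and it is known for covering the promoters and surroundings of silent developmental genes. Away from promoters it can spread as broad, low domains over intergenic chromatin. Gene deserts are long intervals without protein-coding genes; many flank transcription factor or cell adhesion genes and hold their distant enhancers, and others hold few known elements. Here "desert" means only the absence of protein-coding genes: 7724 of the 39259 regions (19.7%) overlapped an annotated noncoding gene or pseudogene, 7336 of them a long noncoding RNA (lncRNA).

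The promoters that do sit in these regions belong to lncRNAs and hold few CpG dinucleotides, the sequence feature that marks most Polycomb-bound gene starts. In the RefSeq promoter table of GRCm38.p6, 214 lncRNA start windows of 300 bases, from 197 genes, met a desert region. Their median CpG count was 3, the highest was 18, and 3.74% held 10 or more. Over all 11311 lncRNA windows the median was 4 and 19.1% held 10 or more, and over 20085 protein-coding windows the median was 14 and 57.9% did. The motif searched was CG, which reads the same on both strands, and 93.5% of the desert windows held at least 1. Windows in regions higher in set 1 (121) and in set 2 (93) both had a median of 3 CpG. The 6 windows below show what such starts look like; they lie wholly inside desert regions whose 3 values in 1 set were all above the 3 in the other, and have the largest ratios of that kind in each direction, 3 per direction. They were chosen after the values were seen. Each is printed 5′ to 3′ on the gene's own strand, with every CpG in capitals.
Gm26843: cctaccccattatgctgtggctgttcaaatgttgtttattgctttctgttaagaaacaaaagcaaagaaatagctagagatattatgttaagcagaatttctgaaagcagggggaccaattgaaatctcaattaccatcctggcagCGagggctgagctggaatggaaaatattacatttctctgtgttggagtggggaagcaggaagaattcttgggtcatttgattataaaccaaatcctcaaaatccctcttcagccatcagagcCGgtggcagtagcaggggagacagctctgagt
Gm31962: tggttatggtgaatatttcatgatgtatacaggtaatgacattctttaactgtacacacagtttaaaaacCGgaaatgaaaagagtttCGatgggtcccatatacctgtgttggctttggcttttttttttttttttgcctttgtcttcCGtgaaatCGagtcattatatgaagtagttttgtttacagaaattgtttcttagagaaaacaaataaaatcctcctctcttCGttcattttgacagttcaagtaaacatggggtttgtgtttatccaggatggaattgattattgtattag
Gm41061: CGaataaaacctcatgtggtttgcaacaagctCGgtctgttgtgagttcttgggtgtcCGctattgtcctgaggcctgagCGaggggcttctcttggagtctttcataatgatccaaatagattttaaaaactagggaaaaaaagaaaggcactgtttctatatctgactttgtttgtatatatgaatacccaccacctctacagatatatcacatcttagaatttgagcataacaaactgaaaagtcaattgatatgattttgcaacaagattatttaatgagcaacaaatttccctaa
Gm35815: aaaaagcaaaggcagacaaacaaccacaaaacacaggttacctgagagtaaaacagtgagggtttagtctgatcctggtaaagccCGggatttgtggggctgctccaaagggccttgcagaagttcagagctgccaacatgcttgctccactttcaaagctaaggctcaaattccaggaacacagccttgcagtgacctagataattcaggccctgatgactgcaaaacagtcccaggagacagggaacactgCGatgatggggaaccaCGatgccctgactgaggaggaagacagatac
1700014L14Rik: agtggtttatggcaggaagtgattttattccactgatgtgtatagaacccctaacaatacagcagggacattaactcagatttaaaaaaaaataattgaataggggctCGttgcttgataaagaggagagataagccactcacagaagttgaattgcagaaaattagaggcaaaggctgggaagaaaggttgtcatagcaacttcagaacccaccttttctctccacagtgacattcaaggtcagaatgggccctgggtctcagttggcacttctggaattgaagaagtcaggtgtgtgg
Gm35163: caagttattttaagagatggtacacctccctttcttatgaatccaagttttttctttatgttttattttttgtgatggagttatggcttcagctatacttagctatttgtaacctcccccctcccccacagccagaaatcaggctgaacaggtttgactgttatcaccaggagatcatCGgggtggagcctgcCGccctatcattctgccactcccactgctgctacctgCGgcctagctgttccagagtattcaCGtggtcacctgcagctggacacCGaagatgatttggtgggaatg

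The first 3 windows lie in regions higher in set 1. The Gm26843 window (chr8:93689667-93689966, minus strand) has 2 CpG, and the 2450 bp region around it, 119 kb from the nearest protein-coding gene, had values of 528, 580 and 652 in the set 1 libraries and 45, 37 and 81 in the set 2 libraries. Its summed value was 10.8-fold higher in set 1 (6.52 to 17.6; brackets after a ratio give its lowest and highest value when each set 1 library is divided by each set 2 library, 9 pairs). The Gm31962 window (chr10:67399428-67399727, plus strand) has 5 CpG in AT-rich sequence, and its region had 126, 108 and 156 in set 1 against 12, 17 and 33 in set 2, 6.29-fold (3.27 to 13.0). At the Gm41061 window (chr13:112041494-112041793, minus strand), with 4 CpG near its 5′ end, the region had 201, 296 and 262 against 105, 46 and 109, 2.92-fold (1.84 to 6.43). The other 3 windows lie in regions higher in set 2. The Gm35815 window (chr2:178680388-178680687, plus strand, 3 CpG) had 34, 45 and 38 in set 1 and 163, 227 and 162 in set 2, 4.72-fold higher in set 2 (3.60 to 6.68). The 1700014L14Rik window (chr8:18334283-18334582, minus strand) has a single CpG, and its region, 260 kb from a gene, had 71, 135 and 107 against 298, 410 and 357, 3.40-fold (2.21 to 5.77). The Gm35163 window (chr6:43839005-43839304, plus strand, 5 CpG) had 477, 301 and 361 against 909, 849 and 1066, 2.48-fold (1.78 to 3.54). In all 6, the 3 libraries of one set lay clear of the 3 of the other, as the choice required.

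Desert regions were more often higher in set 2, whereas genic regions were more often higher in set 1. By summed value, set 1 had the higher value in 16468 desert regions (41.9%, 95% Wilson interval 41.5 to 42.4) and set 2 in 22791. Among genic regions 59.7% (59.4 to 60) were higher in set 1, and among all autosomal regions 59.2%. These intervals cover counting error only; neighbouring regions are not independent, so no test over regions was made. Of desert regions, 26786 (68.2%) had non-overlapping sets of values, called separated, against a background of 65.0% of all autosomal regions. Separated desert regions were higher in set 2 in 15518 cases, 39.5% of desert regions against 24.8% of all. In the other direction there were 11268, 28.7% against 40.2%. A ratio of 2-fold or more was reached by 17709 desert regions, 45.1% against 34.9%. Of desert regions, 10881 (27.7%) passed 2-fold with set 2 higher, against 13.0% of all autosomal regions, and 6828 (17.4%) with set 1 higher, against 21.9%.

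In summed signal the excess of set 2 was small. The values over all desert regions added up to 3977700, 3959253 and 3729317 in the set 1 libraries and to 3884453, 4058324 and 3884698 in the set 2 libraries, and these ranges overlap. The set 1 sum was 0.986 times the set 2 sum (0.919 to 1.02). Over genic regions it was 1.15 times (1.08 to 1.19) and over all autosomal regions 1.14 times (1.08 to 1.18), so the sets did not overlap in either. As a share of the listed autosomal value, desert regions held 9.53, 9.46 and 9.37% in the set 1 libraries and 10.9, 11 and 10.9% in the set 2 libraries. The desert sum over the genic sum was 0.218, 0.216 and 0.214 in set 1 and 0.251, 0.252 and 0.251 in set 2. The share of listed signal lying in deserts was thus higher in each set 2 library than in any set 1 library, although the listing itself depended on the values. The 2 sets differ in their total listed value, and making the library totals equal shifts every ratio by 0.19 on the log2 scale towards set 2. The desert ratio was then 0.862, so the size of the set 2 excess depends on the scaling.

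The share of regions higher in set 1 changed step by step with distance from genes. It was 68.2% within 20 kb outside a gene, 63.9% from 20 to 50 kb and 56.7% from 50 to 100 kb. It was 47.3% of the 23148 regions from 100 to 200 kb, 34.6% of the 14596 from 200 to 500 kb and 31.1% (28.8 to 33.5) of the 1515 beyond 500 kb. The summed set 1 over set 2 ratio was 1.20, 1.17, 1.12, 1.03, 0.906 and 0.987 over the same 6 classes, so the last class did not continue the order in summed signal. The limit of 100 kb falls inside this gradient. The region just inside it (chr6:95229801-95230800, between Kbtbd8 and Suclg2, 100007 bp from a gene) had 230, 243 and 259 in set 1 and 327, 291 and 239 in set 2. The region just outside it (chr17:68172601-68172900, between Arhgap28 and L3mbtl4, at 99997 bp) had 40, 39 and 57 against 21, 40 and 29.

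**Figure D1:**
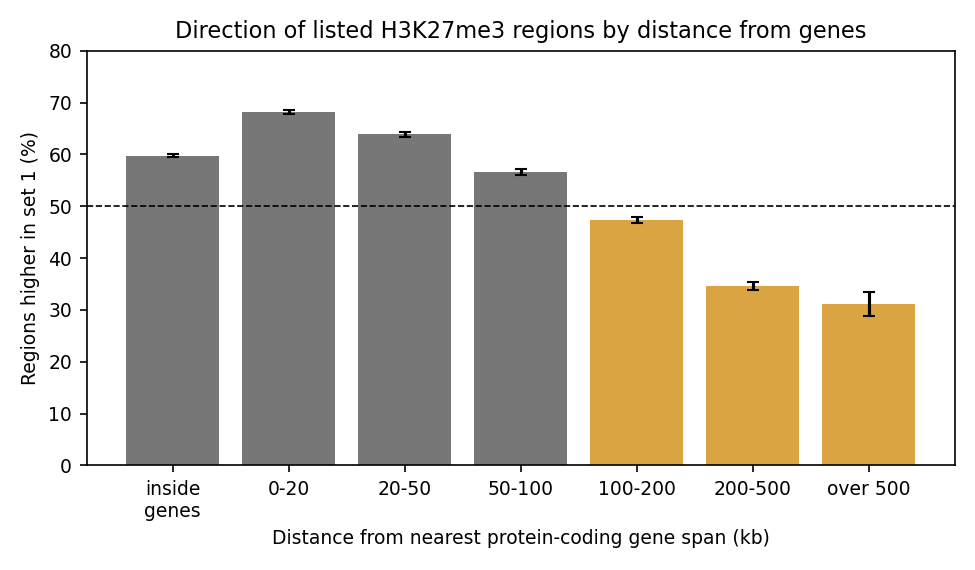
Percent of listed autosomal regions whose summed value was higher in set 1 (vertical axis), by distance in kb from the nearest protein-coding gene span (horizontal axis); bars start at 0, whiskers are 95% Wilson intervals, the dashed line is 50%, and orange bars are the desert regions. The share goes from 68.2% in the class nearest to genes to 31.1% beyond 500 kb, with genic regions at 59.7%.

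The same contrast appeared on most chromosomes. The desert share higher in set 1 was below the genic share on 16 of 19 autosomes. The widest gaps were on chromosome 19, 18% against 51.9%, chromosome 18, 36.5% against 70.4%, and chromosome 11, 32.3% against 64.1%. On the 3 exceptions the shares lay close together: 85.1% of desert and 84.1% of genic regions on chromosome 4, 53.9% and 51.3% on chromosome 6, and 27% and 26.1% on chromosome 16. Pooled over the chromosome, regions thus leaned strongly one way on chromosome 4 (set 1) and chromosome 16 (set 2), in deserts and genes alike. The lean was not uniform along chromosome 4. In its deserts, 22.0% of 141 regions from Sec61b to Nr4a3 and 23.2% of 82 from Tmem38b to Zfp462 were higher in set 1. From Plpp3 to Usp24 it was 100% of 165. Desert shares were under 50% on 14 autosomes and genic shares on 4.

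**Figure D2:**
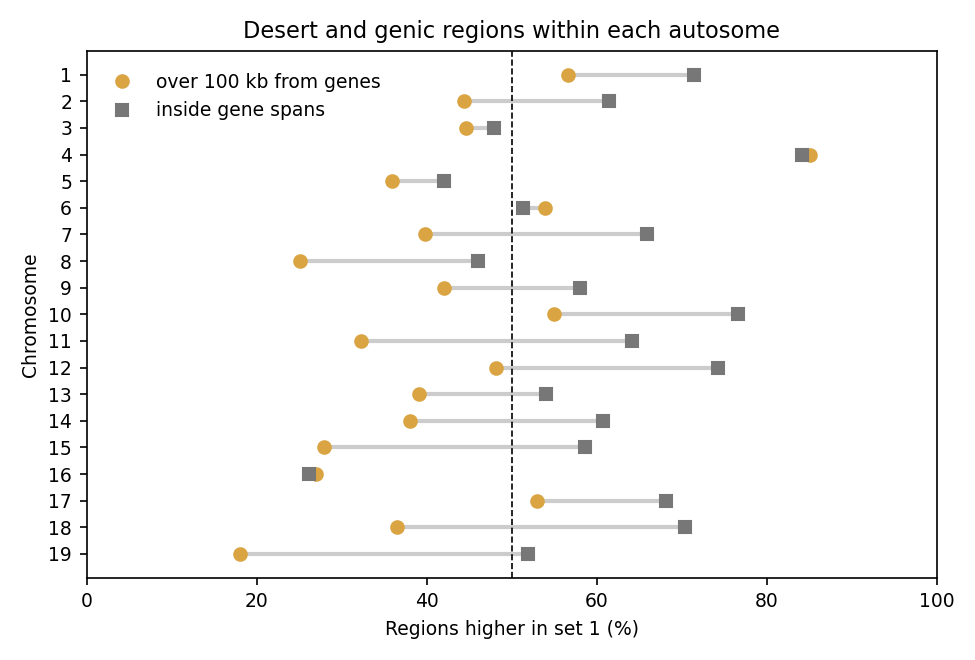
Percent of listed regions higher in set 1 (horizontal axis) on each autosome (vertical axis) for regions over 100 kb from genes (orange circles) and regions inside gene spans (grey squares), joined by a line; the dashed line is 50%. The orange circle lies to the left on 16 of 19 autosomes, and on chromosomes 4 and 16 the symbols nearly coincide.

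Desert regions were shorter and sparser than genic ones. Their median length was 350 bp (quartiles 200 and 650 bp) against 500 bp (300 and 950 bp) for genic regions, on edges that all fall on a 50 bp grid. Regions of 2 kb or more made up 4.62% of desert and 9.32% of genic regions, and the longest were 19100 and 51700 bp. There were 57.8 regions per Mb over the 679.7 Mb of desert, covering 3.44% of it, and 103 per Mb over the 984 Mb of gene spans. The full lengths of genic regions, including any bases beyond a span, added up to 8.84% of the gene span length. The mean value per kb of listed region per library was 168 in deserts and 194 in genes. In the set with the higher sum, the median per region was 179 per kb in deserts (quartiles 167 and 197) and 187 in genes (170 and 214), and in the set with the lower sum it was 90.9 (62.2 and 121) and 108 (73.8 and 149). The higher set was picked region by region from a table listed for a difference, so these quartiles are a description of the listing.

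Direction varied with length, and not in one order. From the shortest class (50 to 150 bp) to the longest (over 2 kb), the desert share higher in set 1 was 38.3, 35.0, 42.6, 44.9, 49.8 and 60.7%. The genic share was 65.6, 52.2, 54.7, 58.0, 62.6 and 74.1%, so the shortest genic regions lay above the next 4 classes. The desert share was lower than the genic one in each of the 6 length classes. With genic regions weighted to the lengths of desert regions the genic share was 59.0%, against 59.7% unweighted. In bases the desert directions nearly balanced, at 11.6 Mb for set 1 and 11.8 Mb for set 2, while genic regions covered 57.8 and 29.2 Mb. The median size of the ratio was 1.89-fold in deserts and 1.66-fold in genes, and within deserts it was 1.81-fold for regions higher in set 1 and 1.94-fold for those higher in set 2.

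Deserts tended to go one way as a unit. Among 1393 gaps of more than 200 kb between neighbouring protein-coding genes, 843 held at least 1 desert region and 550 held none. The 570 deserts with at least 10 regions contained 38160 of them (97.2%); the 50 richest alone held 31.2%. Summed values favoured set 1 in 245 of the 570 and set 2 in 325. The library sums did not overlap between the sets in 520 (91.2%). The same held for 87.1% of 2347 protein-coding gene spans with at least 10 regions, so non-overlap over a whole interval was usual in this table. At least 90% of a desert's regions were higher in set 1 in 137 deserts and in set 2 in 202, together 59.5%, against 51.4% of the gene spans; deserts held a median of 39 regions and gene spans 23. All regions went one way in 78 deserts for set 1 and 134 for set 2, and 358 deserts held regions of both directions, 231 of them with between 10 and 90% higher in set 1. Neighbouring desert regions less than 10 kb apart had the same direction in 86.3% of 35791 pairs, against 79.1% of 93368 genic pairs.

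**Figure D3:**
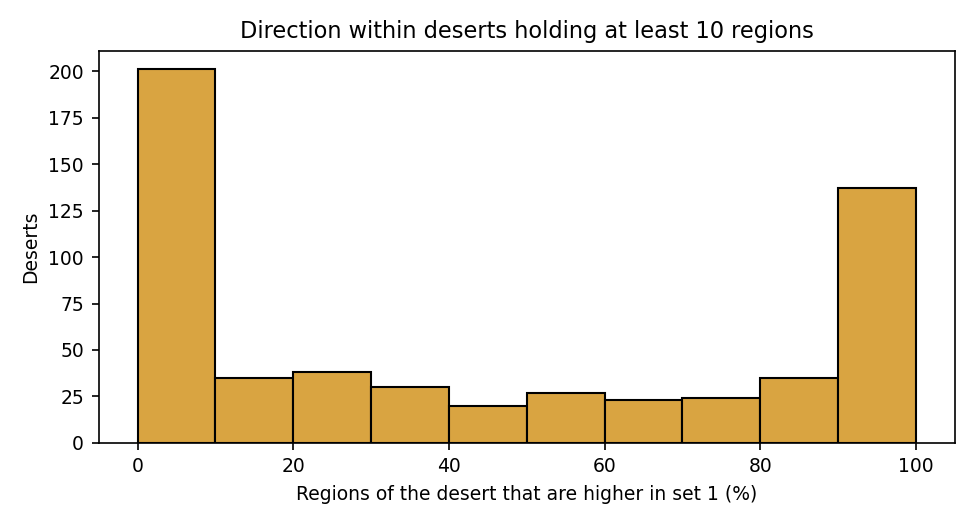
Number of deserts (vertical axis) by the percent of their regions that were higher in set 1 (horizontal axis, bars 10 points wide), for the 570 deserts with at least 10 regions. Most deserts sit in the outermost bars, with more at the set 2 end than at the set 1 end.

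The interior of a desert went with its edges more often than not. In 514 gaps with at least 10 regions both in the core (over 100 kb from genes) and in the flanking 100 kb on both ends, the majority direction was the same in 204 gaps for set 1 and 233 for set 2. The core favoured set 2 while the edges favoured set 1 in 52 gaps, and the reverse held in 20. The pooled share higher in set 1 was 41.8% of 36082 core regions and 53.3% of 28661 edge regions, and the core share was the lower one in 288 gaps and the higher one in 140. Across the 514 gaps the 2 shares correlated at r = 0.878, a description over neighbouring stretches of the same libraries. Longer gaps held fewer regions per Mb. Gaps of 200 to 500 kb held 156 regions per Mb of core with 55.0% higher in set 1, and gaps of 1 to 2 Mb held 35.0 per Mb with 24.9%. The 78 gaps over 2 Mb held 8.85 per Mb with 36.2%. The share of gaps with at least 1 desert region changed less, at 61.0% for 200 to 500 kb and 56.4% for over 2 Mb. Of the 10 longest gaps, 3 held no desert region, against 34 of the 78 over 2 Mb and 550 of all 1393. Among the 3 was the longest of all, 4.54 Mb between the protocadherin genes Pcdh20 and Pcdh9, which encode neuronal cell adhesion proteins.

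The deserts around Maf, which encodes a leucine zipper transcription factor of lens, cartilage and immune cells, had the largest ratios of any desert with at least 10 regions. Between Maf and Dynlrb2, a dynein light chain gene (chr8:115706895-116505014), all 296 desert regions were higher in set 2. Their values summed to 2474, 1892 and 1385 in the set 1 libraries and 18380, 19071 and 18556 in the set 2 libraries, 9.74-fold higher in set 2 (7.43 to 13.8). On the other side, between Maf and Wwox, an oxidoreductase gene over a common fragile site (chr8:115352713-115703252), all 200 were higher in set 2. The sums there were 1670, 1235 and 970 against 12295, 12049 and 11921, 9.36-fold (7.14 to 12.7). Per kb of listed region this was 16.9 to 31.5 in set 1 over both deserts and 225 to 233 in set 2. Of the 496 regions 479 were separated, 20 were listed at 0 in all 3 set 1 libraries, and the median value per library was 3 in set 1 and 24 in set 2. The 82 regions within 100 kb of Maf were also all higher in set 2, 7.31-fold in sum, as were the 4 regions overlapping Wwox, and 0 regions overlapped Maf itself. The whole interval thus lay on one side, with the gene's own span unlisted.

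Single regions of these deserts supplied 4 of the 5 largest set 2 ratios among separated regions with a summed value of at least 200. The region at chr8:115492751-115493050 was listed at 0 in all 3 set 1 libraries and at 59, 74 and 82 in set 2. The one at chr8:115472601-115472900 had 0, 3 and 0 against 58, 40 and 105. On the Dynlrb2 side, chr8:116253751-116254050, within the lncRNA Gm31278, had 1, 0 and 0 against 102, 56 and 51, and chr8:116131451-116131900 had 0, 1 and 3 against 102, 122 and 108. The fifth lay between Grm7, a glutamate receptor gene, and Lmcd1 (chr6:112140801-112141100), with 0, 0 and 3 against 101, 32 and 70. In each of the 5 the set 1 values were at or next to 0.

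**Figure D4:**
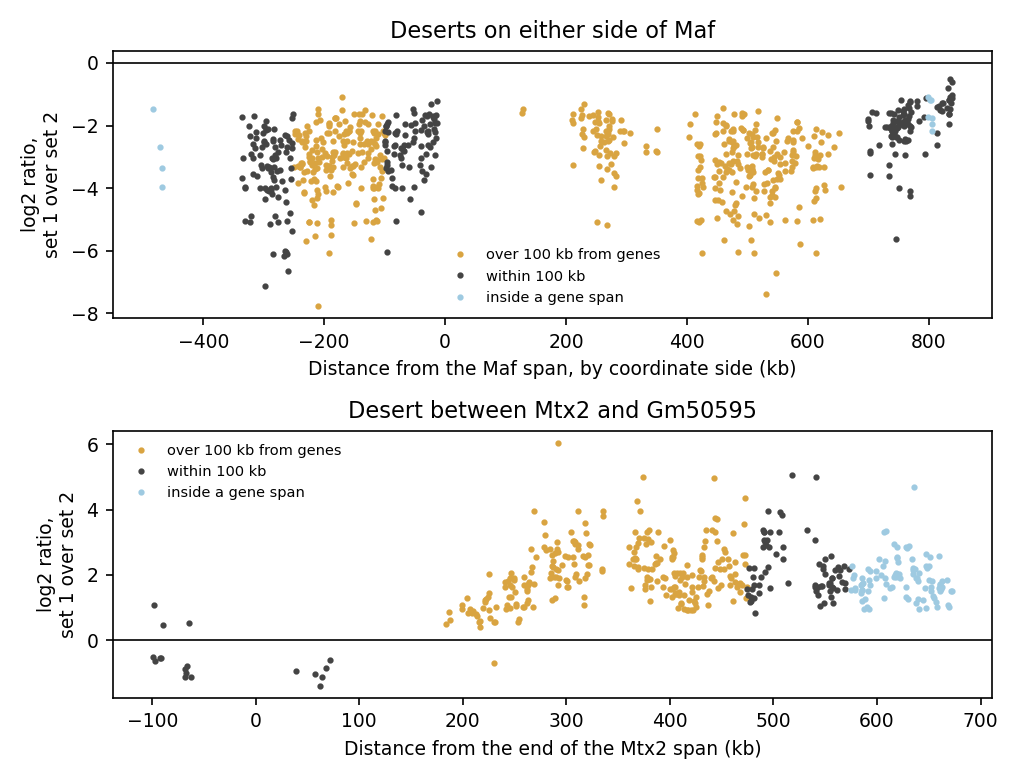
log2 ratio of the summed values, set 1 over set 2, with a pseudocount of 1 (vertical axes) for each listed region around Maf (upper panel, distance in kb from the Maf span) and between Mtx2 and Gm50595 (lower panel, distance in kb from the Mtx2 span); orange points are over 100 kb from genes, dark points nearer, light blue points inside a gene span. All 496 orange points around Maf lie below 0, and 272 of 273 between Mtx2 and Gm50595 lie above it.

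The leading deserts in the other direction were Plpp3 to Usp24, Rtl1 to Dio3, Mmadhc to Rnd3 and Max to Fut8. Between Plpp3, a lipid phosphatase gene, and Usp24, a deubiquitinase gene (chr4:105232768-106315979), all 165 regions were higher in set 1. Their values added up to 7166, 6777 and 6387 in set 1 against 1180, 1080 and 1338 in set 2, 5.65-fold (4.77 to 6.64). This desert held 2 of the 5 largest set 1 ratios of single regions, chr4:105999001-105999300 with 106, 51 and 40 against 0, 0 and 4, and chr4:106214401-106214750 with 76, 83 and 65 against 0, 4 and 1. Rtl1 to Dio3 lies in an imprinted cluster on chromosome 12 (chr12:109604419-110279229), between a retrotransposon-derived gene and the type 3 deiodinase gene. All 55 regions there were higher in set 1, with 2375, 2360 and 2266 against 425, 362 and 548, 5.24-fold (4.14 to 6.56). The smaller deserts Mmadhc to Rnd3 (25 of 25 regions, 4.63-fold, 3.93 to 6.13) and Max to Fut8 (22 of 22, 4.07-fold, 3.51 to 4.67) flank Rnd3, a small GTPase gene, and the gene of the MYC partner Max. In all 4, every set 1 library was far above every set 2 library.

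The remaining large set 1 ratios of single regions came from Irf8 to Foxf1 and Gm765 to Foxp1. Irf8 encodes a myeloid transcription factor and Foxf1 a mesodermal forkhead factor; the region at chr8:120921001-120921500 between them had 103, 123 and 108 in set 1 against 9, 4 and 3 in set 2, 20.9-fold (11.4 to 41.0). Nearby, chr8:120915951-120916250 had 68, 63 and 87 against 5, 0 and 0. Beside Foxp1, a forkhead repressor gene, chr6:98714901-98715250 had 100, 70 and 60 against 0, 0 and 7. The Foxp1 desert as a whole, on its Gm765 side, had 297 of 323 regions higher in set 1 and a sum 1.57-fold higher (1.49 to 1.63).

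The other leading set 2 deserts were Irx1 to Irx2 and Grm7 to Lmcd1. Irx1 and Irx2 are Iroquois homeobox genes that pattern limb, heart and neural tissue. All 77 regions between them (chr13:71963724-72624429) were higher in set 2, with 494, 492 and 517 in set 1 and 2896, 2985 and 2816 in set 2, 5.79-fold (5.45 to 6.07), the tightest range of the leading deserts. Grm7 to Lmcd1 also had 77 of 77 regions higher in set 2, with 1042, 902 and 650 against 4484, 5124 and 4398, 5.40-fold (4.22 to 7.88). A further desert chosen after its values were seen, Tshz3 to Zfp536 between zinc finger genes, had 49 of 49 regions higher in set 2, with 350, 434 and 367 against 1588, 1609 and 1611, 4.18-fold (3.66 to 4.60).

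The deserts with the most regions had smaller ratios than the leading ones above. Sall3 to Galr1, beside a spalt zinc finger gene, held 420 regions, 104 of them higher in set 1, and was 1.21-fold higher in set 2 (1.14 to 1.31). Tle4 to Psat1, beside a Groucho corepressor gene, held 376, of which 9 were higher in set 1, and was 1.66-fold higher in set 2 (1.53 to 1.87). Adra2a to Gpam, beside an adrenergic receptor gene, was mixed, with 142 of 356 higher in set 1 and a 1.14-fold higher sum in set 2 (1.08 to 1.23). Dhx35 to Gm826 on chromosome 2, beside an RNA helicase gene, went wholly to set 2. None of its 339 regions was higher in set 1, and the sums were 9014, 8171 and 7511 against 19583, 20470 and 19936, 2.43-fold (2.17 to 2.73).

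Long deserts of one direction also occurred on the set 1 side. The Mtx2 to Gm50595 desert (chr2:74876749-75451973) begins at Mtx2, a mitochondrial import gene beside the HoxD cluster whose distal regulatory elements lie in the neighbouring deserts; it and the next 2 deserts were chosen after their values were seen. In it 272 of 273 regions were higher in set 1, with sums of 20148, 20707 and 19829 against 6697, 6463 and 6910, 3.02-fold (2.87 to 3.20). The edge next to Mtx2 went the other way. Listed regions 39.3 to 71.4 kb from the end of Mtx2 were all higher in set 2, with log2 ratios of -1.39 to -0.59. Those within 100 kb of Gm50595 in this gap were all higher in set 1. Arrdc4 to Nr2f2, beside an orphan nuclear receptor gene, had 268 of 278 higher in set 1 at 1.56-fold (1.48 to 1.62). Rragc to Pou3f1, beside a POU homeobox gene, had 265 of 272 at 1.53-fold (1.42 to 1.61), and its listed regions covered 70.1% of its core, against 3.44% over all deserts.

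**Figure D5:**
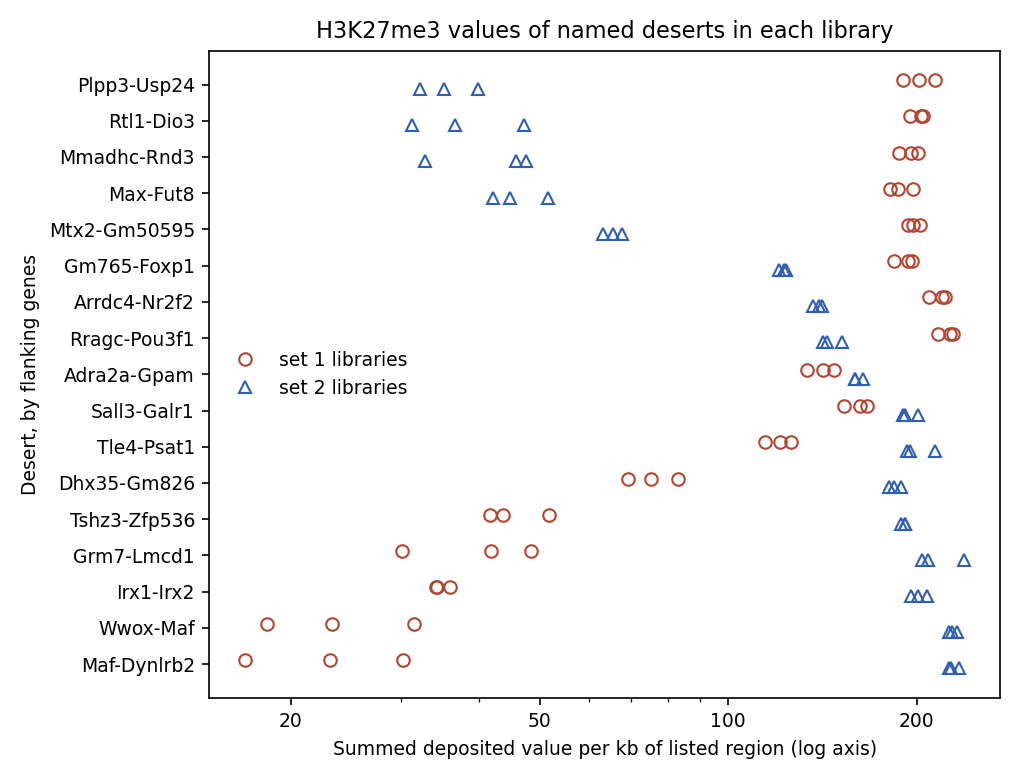
Summed deposited value per kb of listed region (horizontal log axis) in each of the 3 set 1 libraries (red circles) and 3 set 2 libraries (blue triangles) for deserts named by their flanking genes (vertical axis), ordered by ratio. The higher set lies between 159 and 238 per kb in each desert, while the lower set goes down to 16.9.

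The longest desert regions were broad domains with modest ratios. Of the 6 longest, 5 were higher in set 1, and these are given here. The longest, 19100 bp between Grik3 and Csf3r (chr4:125892951-125912050) over the lncRNA 2610028E06Rik, had 5822, 5978 and 5575 in set 1 against 3765, 3985 and 3442 in set 2, 1.55-fold (1.40 to 1.74). The next, 18150 bp between Kif26a and A530016L24Rik (chr12:112336901-112355050), was 1.32-fold (1.25 to 1.39). In the Gm44812 to Mctp2 desert on chromosome 7, regions of 16700 and 14950 bp were 1.65-fold (1.43 to 1.81) and 1.64-fold higher in set 1, the first of them 581 kb from any protein-coding gene. Between Cdkn2b, a cyclin-dependent kinase inhibitor gene, and Dmrta1 (chr4:89558301-89574100), a 15800 bp region had 6493, 6519 and 6298 against 3893, 3986 and 3873, 1.64-fold (1.58 to 1.68). The region farthest from any protein-coding gene, 1605348 bp away between Dsel and Cntnap5a (chr1:113470401-113470650), had 49, 45 and 23 against 0, 29 and 16, and the sets overlapped there.

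Deserts beside genes for developmental regulators, and more so those beside genes for neuronal adhesion and synaptic proteins, were mostly higher in set 2. Both lists were drawn up from genes known for lying next to deserts. Of 81 developmental regulators 68 (84.0%) flanked a gap of more than 200 kb, as did 71 of 77 neuronal genes found in the annotation, against 11.5% of all 20665 autosomal protein-coding genes. Regions were listed in 70 of the 92 gaps beside developmental regulators (76.1%) and in 44 of the 105 beside neuronal genes (41.9%), against 60.5% of all gaps. Of the 54 developmental deserts with at least 10 regions, 36 were higher in set 2 (66.7%), with a median log2 ratio of -0.58. Of the 27 neuronal ones, 23 were higher in set 2 (85.2%), with a median of -0.86. These 27 include Kcnj2 to Gm11677, with 8 of 189 regions higher in set 1. It was counted because the list holds the potassium channel gene Kcnj2, and it lies in the interval between Kcnj2 and Sox9. Over all 570 such deserts 57.0% were higher in set 2 and the median was -0.23. Single regions leaned the same way, with 34.5% of 5520 higher in set 1 beside developmental genes and 15.2% of 1967 beside neuronal genes. The lists were not matched to other deserts for chromosome or gap length. Several neuronal deserts lie on chromosome 8, where 25.1% of all desert regions were higher in set 1. Several are gaps over 1 Mb, and all gaps of 1 to 2 Mb and over 2 Mb had 24.9 and 36.2%. Whether the lean is particular to these gene classes was not tested.

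Developmental deserts went in both directions. Over all desert regions the share higher in set 1 was 25.1% on chromosome 8 and 85.1% on chromosome 4. Whether a direction beside a gene differed from that of its chromosome was not tested. The Iroquois genes leaned to set 2: Adamts16 to Irx1 had 0 of 264 regions higher in set 1, with 4396, 4148 and 3756 in set 1 against 11314, 11740 and 11089 in set 2, 2.78-fold (2.52 to 3.13). Irx2 to Irx4 had 0 of 100 higher in set 1, 2.29-fold (2.08 to 2.63), and Irx3 to Irx5 on chromosome 8 had 25 of 135, 1.36-fold higher in set 2. Both deserts beside Sox2, a stem cell and neural factor gene, had 0 regions higher in set 1, of 53 and of 32, and were 1.91-fold and 2.51-fold higher in set 2. Sall1 to Tox3, also on chromosome 8, had 0 of 141 higher in set 1, with 2904, 2757 and 2393 against 6661, 7341 and 6321, 2.52-fold (2.18 to 3.07). Shh to Rnf32, beside the hedgehog ligand gene Shh, had 5 of 139 higher in set 1 and was 1.67-fold higher in set 2 (1.47 to 2.00).

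Other developmental deserts lay on the set 1 side. Mpdz to Nfib, on chromosome 4 beside a nuclear factor I gene, had all 209 regions higher in set 1. Its sums were 12442, 11220 and 11535 against 4833, 4317 and 4998, 2.49-fold (2.24 to 2.88). Ddhd1 to Bmp4 had 70 of 70, with 2210, 2707 and 2438 against 855, 808 and 920, 2.85-fold (2.40 to 3.35). Bmp4 and Bmp2 encode related bone morphogenetic ligands, yet Bmp2 to Hao1 had 0 of 48 higher in set 1, with 500, 575 and 472 against 1303, 1398 and 1380, 2.64-fold higher in set 2 (2.27 to 2.96). The Meis homeobox genes differed too. Meis1 to Spred2 was 1.40-fold higher in set 2 (50 of 286 regions higher in set 1), and Meis2 to Tmco5 was 1.58-fold higher in set 1 (150 of 156). Both deserts beside the chromatin organiser gene Satb1 had 0 regions higher in set 1, of 48 and of 43. Psmd7 to Zfhx3 was near balance, with 118 of 264 regions higher in set 1; its summed value in set 2 was 1.01 times that in set 1 (0.961 to 1.10).

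The desert between Kcnj2, a potassium channel gene, and Sox9, the master regulator of cartilage, was split by the predicted gene Gm11677. On the Kcnj2 side 8 of 189 regions were higher in set 1, with 18616, 17898 and 16449 in set 1 against 36520, 32991 and 34670 in set 2, 1.97-fold higher in set 2 (1.77 to 2.22). On the Sox9 side of Gm11677 10 of 10 were higher in set 1, 2.57-fold (2.02 to 3.30). Beyond Sox9, towards Slc39a11, 32 of 32 were higher in set 1, with 2120, 2055 and 1782 against 854, 809 and 793, 2.43-fold (2.09 to 2.67). Direction thus changed along the chromosome within the Kcnj2 to Sox9 interval.

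Among neuronal genes, both deserts beside Csmd1, a complement regulator gene of the brain, were wholly higher in set 2. On the Mcph1 side 0 of 183 regions were higher in set 1, with 6140, 5702 and 4965 against 16038, 17205 and 16882, 2.98-fold (2.61 to 3.47), and on the Myom2 side 0 of 204, 1.94-fold (1.80 to 2.18). Of the 4 neuronal deserts higher in set 1, only Dsel to Cntnap5a exceeded 2-fold, with 67 of 67 regions, sums of 3257, 3484 and 3095 against 1344, 1469 and 1461 and a ratio of 2.30 (2.11 to 2.59). The table lists no region by presence alone, so the fibroblast label cannot be checked here by absence of the mark. Of 15 fibroblast genes 7 flanked a gap, and regions were listed in 2 of those gaps: Pdgfra to Kit, with 14 of 77 higher in set 1, and Bet1 to Col1a2, with 99 of 107.

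Part of the desert regions lie in noncoding genes. Desert regions overlapping a noncoding gene or pseudogene were higher in set 1 in 46.7% of cases and the other 31535 in 40.8%. Among 824 lncRNA genes with a desert region, 244 had at least 10, and of these 55 had all regions higher in set 1 and 69 all higher in set 2. Among the 570 deserts with at least 10 regions, these counts were 78 and 134. The same count was not made for protein-coding gene spans. Whether regions of 1 direction are particular to lncRNA genes was therefore not tested. The lncRNA gene 2600014E21Rik (chr2:75137655-75322407), in the Mtx2 desert, had 191 of 191 regions higher in set 1, with 13155, 13572 and 12869 against 3239, 2937 and 3566, 4.06-fold (3.61 to 4.62). Gm31278, in the Maf to Dynlrb2 desert, had 0 of 81 higher in set 1 and was 10.4-fold higher in set 2 (7.97 to 15.3). A930011G23Rik was split, with 89 of 181 regions higher in set 1 and a summed ratio of 0.924. The rule also admits loci that are not deserts in the usual sense, and these were not counted in full. For example, 65 regions lie in the T cell receptor locus Tcra, whose biotype is not protein-coding in this annotation. Another 62 lie in Rnls, annotated there as a transcribed pseudogene.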

How the data were processed

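H3K27me3 chromatin immunoprecipitation libraries from 3T3 cells (3 per construct, plus 1 input each) entered 1 table that the authors deposited, without column names. The submitters' processing notes name the tools CASAVA, Trimmomatic 0.36 and BWA 0.7.17 and the build GRCm38. No source used here says how regions were called, how their 6 values were normalized or whether inputs were subtracted. The deposited values are whole numbers of unknown scaling and were not treated as raw counts, so no count model was fitted. The authors' p column was not used.

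Distances to RefSeq protein-coding spans (GRCm38.p6, 20665 autosomal genes), gaps between genes, sums and ratios were computed in Python 3.11.15 with pandas 2.3.3, NumPy 2.4.6 and SciPy 1.17.1. A gene missing from that annotation would let a region count as desert. Log2 ratios use a pseudocount of 1. No tests were made: the regions were listed for a difference, and the set identities and library order are unnamed. With the order unnamed, no mean ± SD is given. On simulated data 0 of 600 distances differed from a brute-force count and 20000 of 20000 directions of 2-fold were recovered. This checks the code only. The simulated differences were easy to recover, so it gives no measure of how reliable directions are in the deposited values.

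The members, the 3 gene lists and the named-item rule were chosen with earlier results of these data known. That rule took the 6 longest regions, the 5 per direction with the largest ratio (separated, summed value at least 200), the farthest region, the regions at the 100 kb limit, the 6 deserts with the most regions, the 4 per direction with the largest ratio and the longest gap. Other named items were list members or are stated as chosen afterwards; lncRNA genes and list members were picked after their values were seen. Alternatives changed the distance limit, gene set, region filters, chromosomes, weighting, scaling and libraries. Some items selected by the rule are not reported here. No genome sequence of the regions was used here.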

Additional observations from a re-analysis of the deposited data

How the results depend on the processing

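Across the alternatives the desert share higher in set 1 stayed under 50% and below the genic share. With limits of 50 and 200 kb and with all RefSeq genes, noncoding included, the desert count was 68140, 16111 and 5063, the share higher in set 1 was 48.2, 34.2 and 33.3% (41.9% as reported), and the difference from genic regions was -11.5, -25.5 and -26.8 percentage points (-17.8 as reported). The summed ratio of set 1 over set 2 was then 1.05, 0.914 and 0.888 (0.986 as reported), so its side of 1 depends on the limit, and the share separated was 66.8, 70.2 and 69.3% (68.2% as reported). The median length was 400 bp at 50 kb and 300 bp at 200 kb (350 bp as reported). At 200 kb and with all genes, the value per kb was 159 and 157 (168 as reported) and the density 33.6 and 24.5 regions per Mb (57.8 as reported). With summed values of at least 100, the share was 42.6%, the difference -16.0, the median length 450 bp and the separated share 64.5%. Separated regions alone gave a difference of -20.7, and can give no separated share. With a log2 ratio of at least 1 in size the share was 38.6% and the difference -25.8, and with a pseudocount of 10 they were 39.3% and -26.3. Equal library sums gave a summed ratio of 0.862 and a separated share of 70.6%. Of the 2 alternatives added after seeing the data, deserts weighted equally gave 43.6%, and genic regions weighted to desert lengths a difference of -17.0. The causes of these shifts were not tested. Leaving out 1 library at a time gave summed ratios of 0.975 to 1.01 and separated shares of 75.5 to 77.3%, where fewer values must be separated. No paired analysis was possible because the value columns carry no replicate numbers. Depth is unknown, and low regions with values near 0 give ratios with wide ranges.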
